A study of Mus musculus with 4 samples.

Results

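The interferon response genes described here are 9 genes, Ifitm1, Ifitm2, Ifitm3, Ifit1, Ifit3, Isg15, Irf7, Stat2 and Bst2. They were taken by symbol from a table of 19230 genes measured by RNA sequencing in mouse hippocampus, and each of the 9 was found in it. All mice were C57BL/6 with no other genotype given, and were 12 months old. The control group (Ctrl) holds 2 libraries, replicates 2 and 3, and the other group holds 2 libraries, replicates 1 and 2, of mice given Licochalcone A (LA), a chalcone of licorice root, for 30 days. Neither dose nor route of LA is stated, and the label of the Ctrl mice is a term for cell culture, so what they received is not known. No source states that each library is a mouse of its own. The p-values therefore reflect no more than how far these libraries spread, and that spread may be technical.

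Interferons are secreted proteins that warn cells of viral infection. Type I interferons bind the receptor chains Ifnar1 and Ifnar2, the kinases Jak1 and Tyk2 then act on Stat2, which joins Irf9 in a complex that enters the nucleus. The complex binds a DNA element, the interferon-stimulated response element, and switches on genes whose products block steps of viral growth. Resting tissue transcribes many of these genes at a low level, and in the brain endothelial cells, meningeal cells and microglia are among the cells that carry them.

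The 300 bases around the start of each gene, 250 before and 50 after, were searched in RefSeq's annotation of GRCm38.p6 for the core of that element, which is GAAA, any 2 bases and GAAA again, on both strands, with overlapping matches counted. Of the 9 genes 7 held a match, and 5 held more than 1. Among all 32851 windows in the annotation 3.44% held a match, and 0.225% held more than 1. The stretches are shown because the element is the one through which the complex acts on its target genes. Each is 30 bases, 5′ to 3′ on the gene's own strand, with matches in capitals. A pair of TTTC runs is the same core read on the other strand.
Ifit1: gTTTCACTTTCcagtctcagTTTCAGTTTC
Ifit3, distal: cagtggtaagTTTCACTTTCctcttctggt
Ifit3, proximal: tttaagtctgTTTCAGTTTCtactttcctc
Isg15: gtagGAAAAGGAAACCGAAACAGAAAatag
Bst2: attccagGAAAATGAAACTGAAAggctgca
Stat2: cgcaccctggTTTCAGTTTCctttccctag
Ifitm2: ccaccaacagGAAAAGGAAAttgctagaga
Ifitm3: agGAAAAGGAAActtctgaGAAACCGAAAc
For Ifitm1, Ifitm2, Ifit3 and Irf7 the window follows 1 transcript that starts inside the gene's full RefSeq extent, so other starts of these genes were not searched. In Ifitm3 the stretch lies at chr7:141010715-141010744 and its matches begin 3 bases into the annotated transcript, while in the other genes the matches lie before the start. Isg15 holds 3 overlapping matches within 22 bases at chr4:156200871-156200900. The stretch of Ifit1 is chr19:34640784-34640813, that of Bst2 chr8:71537580-71537609, that of Stat2 chr10:128270266-128270295 and that of Ifitm2 chr7:140955988-140956017. Those of Ifit3 are chr19:34583363-34583392 and chr19:34583397-34583426. Of the 7 genes shown, Ifit1, Ifit3 and Stat2 lie on the plus strand and Ifitm2, Ifitm3, Isg15 and Bst2 on the minus strand. Ifitm1 and Irf7 held none in these windows. A second core, TTCNNNGAA, that of the gamma-activated site through which interferon-gamma acts, matched in 2 of the 9 windows, those of Ifitm3 and Bst2, and in 8.30% of all windows. A match is a run of letters and does not show that a factor binds there.

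The authors deposited levels in FPKM, a fragment count divided by transcript length and by library depth, which summed to between 386945 and 441948 per library. Low genes showed steps that correspond to an estimated 14712000 to 16132000 mapped fragments per library, with the LA libraries the shallower. Spearman's rho across genes ranged from 0.973 to 0.985 between libraries. The highest was between Ctrl replicate 2 and LA replicate 1, above the 0.982 of the Ctrl pair and the 0.981 of the LA pair. Ctrl replicate 3 stood apart, since Ttr, a transport protein gene of the choroid plexus, was 7360 FPKM there and 12.2 to 75.2 FPKM in the others. The comparison used limma on log2(FPKM + 1) and took in 13518 genes whose mean reached 1 FPKM. Adding 1 makes fold changes of low genes smaller than they are in FPKM. All 9 interferon genes passed this filter, Irf7 narrowly at a mean of 1.17 FPKM. Of all tested genes 19, or 0.141%, passed an adjusted p of 0.05, all 19 lower with LA and 0.00% higher. This direction rests in part on the libraries used. Without LA replicate 1 more of the called genes were higher than lower, while lower ones outnumbered higher ones with any other library left out.

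None of the 9 interferon genes passed the threshold, 0 of 9 with limma beside the 0.141% of all genes, and each had a negative log2 fold change with LA, as did 52.4% of all genes. The 3 Ifitm genes and Ifit1 had the smallest p. In 7 of the 9 both LA libraries lay below both Ctrl libraries, which holds for 21.0% of all tested genes. At an unadjusted p under 0.05 from limma 4 of the 9 were lower and 0 higher, beside 4.06% and 3.74% of all genes, or 7.80% in either direction. A log2 fold change of -0.5 or lower was found for 5 of the 9 and 4.27% of all genes, and one of 0.5 or higher for 0 of the 9 and 3.65%. The median log2 fold change of the 9 was -0.68, and that of all tested genes was -0.01. These shares are set side by side with no test, since the genes were chosen with results of these data known.

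**Figure D1:**
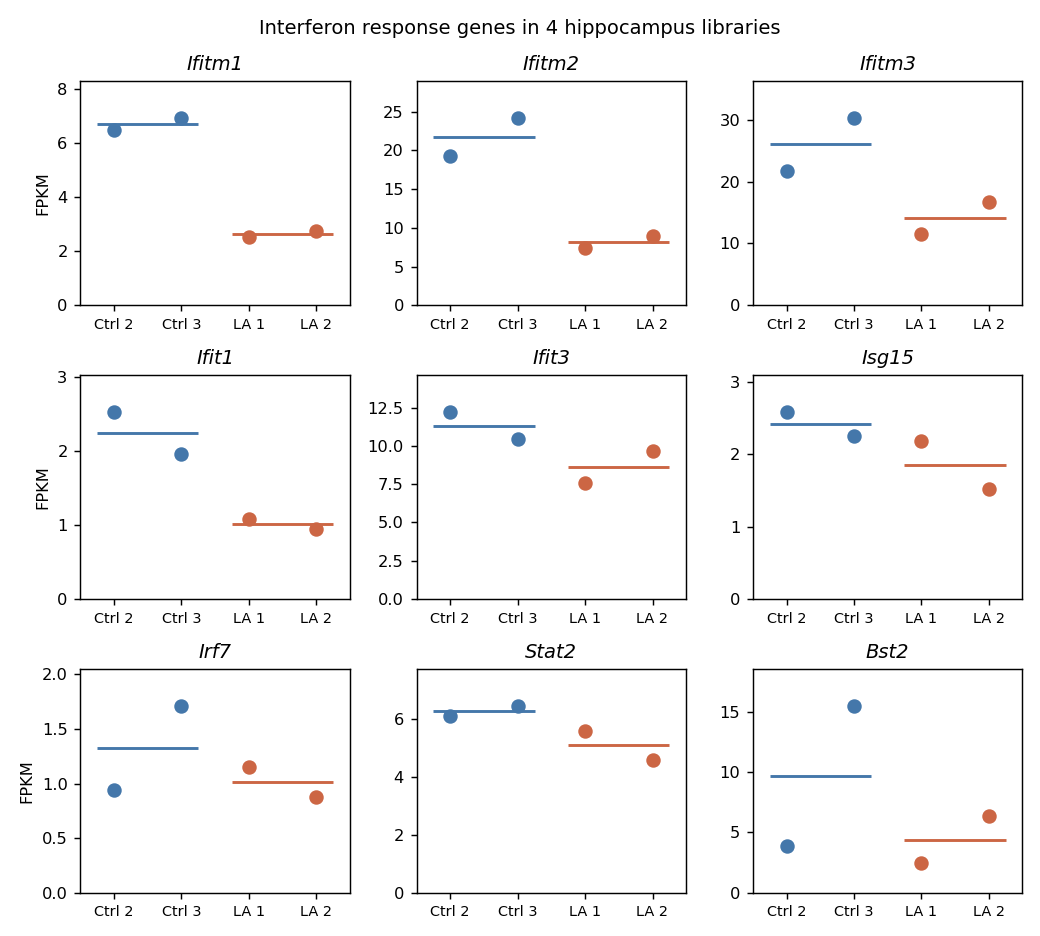
FPKM (vertical axes, from 0, a scale per gene) of the 9 interferon response genes in each library, Ctrl in blue and LA in orange, with short lines at the group means. The groups do not overlap in 7 genes, while in Irf7 and Bst2 Ctrl replicate 2 lies among the LA libraries.

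Ifitm1, Ifitm2 and Ifitm3 encode small membrane proteins that hold enveloped viruses back as they fuse with the cell's endosomes. They lie near each other on chromosome 7 of GRCm38, by the extents in RefSeq, Ifitm2 at chr7:140954837-140959686, Ifitm1 at chr7:140967429-140969827 and Ifitm3 at chr7:141009590-141010744, with Irf7 252439 bases beyond Ifitm3. Ifitm2 measured 19.3 and 24.2 FPKM in Ctrl replicates 2 and 3, and 7.35 and 8.95 FPKM in LA replicates 1 and 2. The LA mean of 8.15 ± 1.13 FPKM was 37.5% of the Ctrl mean of 21.7 ± 3.44 FPKM (SD, n = 2 each). The log2 fold change was -1.31 (standard error 0.185, 95% interval -1.74 to -0.88), with an unadjusted p of 0.000154 from limma that ranked 30 among all tested genes. Its Benjamini-Hochberg adjusted p = 0.0695 from limma lay just outside the threshold. The call is sensitive to the settings, as Ifitm2 passed with robust estimation (adjusted p = 0.0315 from limma), with the filter set at 5 FPKM (0.0486) and without Ctrl replicate 2 (0.0105). It did not pass under the other 9 alternatives, where its adjusted p from limma ranged from 0.0535 to 0.415, the highest without a filter and 0.172 without Ctrl replicate 3.

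Ifitm1 was 6.49 and 6.91 FPKM in Ctrl and 2.51 and 2.74 FPKM in LA, so that the LA mean was 39.2% of the Ctrl mean. The groups lay well apart and libraries of a group lay close together. Ifitm1 had about 27 and 30 fragments in the LA libraries, with an error by counting alone of 19.2% and 18.2%. The step from 2.51 to 2.74 FPKM lies within that error. The log2 fold change was -1.09 (standard error 0.185, adjusted p = 0.130 from limma), and leaving out any 1 library kept it between -1.13 and -1.04. Ifitm3, the member of the family with the best known action against influenza virus and the most abundant of the 9 genes, was 21.8 and 30.3 FPKM in Ctrl against 11.5 and 16.7 FPKM in LA. The groups did not overlap, but libraries within each group differed more than for Ifitm1. Its log2 fold change was -0.84 (standard error 0.229, adjusted p = 0.445 from limma). Of the relatives elsewhere in the family, Ifitm10 was 13.6 and 12.5 FPKM in Ctrl and 10.2 and 20.1 FPKM in LA, and Ifitm7 was 1.52 to 2.15 FPKM over all libraries, with overlapping groups in both. Ifitm5, a gene of bone, and Ifitm6 were at 0.38 FPKM or less in every library and were not tested.

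The sequence of these genes is shared with other annotated genes to differing degrees. Of all 50-base stretches in the GENCODE transcripts of Ifitm2, 48.5% also occur in another annotated gene, most of them in Gm45717, whose annotation overlaps it. The share was 5.02% for Ifitm1 and 10.0% for Ifitm3. It was 51.2% for Ifit3, all of it with its neighbour Ifit3b, 7.13% for Ifit1 and 3.96% or less for Isg15, Stat2, Irf7 and Bst2. How the authors' counting split such reads is not stated, so the levels of Ifitm2 and Ifit3 are the least certain in this respect.

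Ifit1 and Ifit3 belong to a family whose proteins bind viral RNA, Ifit1 by the cap that viral messages lack or carry in another form, with Ifit3 as a partner. Both lie on chromosome 19 of GRCm38, at chr19:34640889-34650009 and chr19:34583119-34588982. Ifit1 was 2.53 and 1.96 FPKM in Ctrl and 1.08 and 0.95 FPKM in LA. The LA mean was 45.2% of the Ctrl mean, at about 83 to 108 fragments per Ctrl library and 38 to 42 per LA library. Its log2 fold change was -0.68 (standard error 0.215, adjusted p = 0.538 from limma), and -1.06 with a pseudocount of 0.1, which weighs low values more. Ifit3 was 12.2 and 10.4 FPKM in Ctrl and 7.58 and 9.68 FPKM in LA, with a log2 fold change of -0.36 and a 95% interval of -0.80 to 0.08. For Ifit3 the gap between the groups, from 9.68 to 10.4 FPKM, was smaller than the gap within either group. Its close copy Ifit3b was 2.34 and 1.90 FPKM in Ctrl and 1.58 and 2.52 FPKM in LA, and Ifit2 was 3.05 and 3.02 against 3.06 and 2.14 FPKM, both with overlapping groups.

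Isg15, at chr4:156199424-156200818, encodes a ubiquitin-like protein that interferon-treated cells attach to other proteins. It was 2.58 and 2.25 FPKM in Ctrl and 2.18 and 1.52 FPKM in LA. The groups did not overlap, but the step from 2.25 to 2.18 FPKM that separates them is well within counting error at about 17 to 31 fragments per library, whose error by counting alone is 17.8% to 24.2%. The log2 fold change was -0.27 (95% interval -0.78 to 0.24, adjusted p = 0.814 from limma).

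Bst2, also called tetherin, at chr8:71534255-71537472, holds budding viruses on the cell surface. It was 3.90 FPKM in Ctrl replicate 2 and 15.5 FPKM in Ctrl replicate 3, and 2.43 and 6.34 FPKM in LA replicates 1 and 2. The groups overlapped, and the libraries within Ctrl differed by 1.75 on the log2 scale, more than in any other of the 9 genes. The log2 fold change of -0.84 had a 95% interval of -2.16 to 0.48 (adjusted p = 0.767 from limma). It was 0.034 without Ctrl replicate 3, and -1.71 without Ctrl replicate 2, where it passed (adjusted p = 0.0207 from limma). The value of Bst2 thus rests on which Ctrl library is used. Ctrl replicate 3 is also the library with high choroid plexus markers, whose 9 genes summed to 7575 FPKM there and to 21.6 to 88.5 FPKM in the other libraries. The part of choroid plexus in the Bst2 value was not tested.

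Irf7 and Stat2 are the factors of the group. Irf7 drives the amplified wave of type I interferon once cells are alerted, and Stat2 is part of the complex that binds the response element. Their extents are chr7:141263183-141266499 and chr10:128270498-128292853. Irf7 was 0.94 and 1.71 FPKM in Ctrl and 1.15 and 0.88 FPKM in LA, the lowest level of the 9 genes, at about 24 to 50 fragments per library. The groups overlapped, and the log2 fold change was -0.19 (95% interval -0.77 to 0.39) and 0.051 without Ctrl replicate 3. Stat2 was 6.10 and 6.45 FPKM in Ctrl and 5.59 and 4.60 FPKM in LA. Its LA mean was 81.2% of the Ctrl mean, the highest share of the 9, with a log2 fold change of -0.26 (95% interval -0.70 to 0.18, adjusted p = 0.781 from limma).

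**Figure D2:**
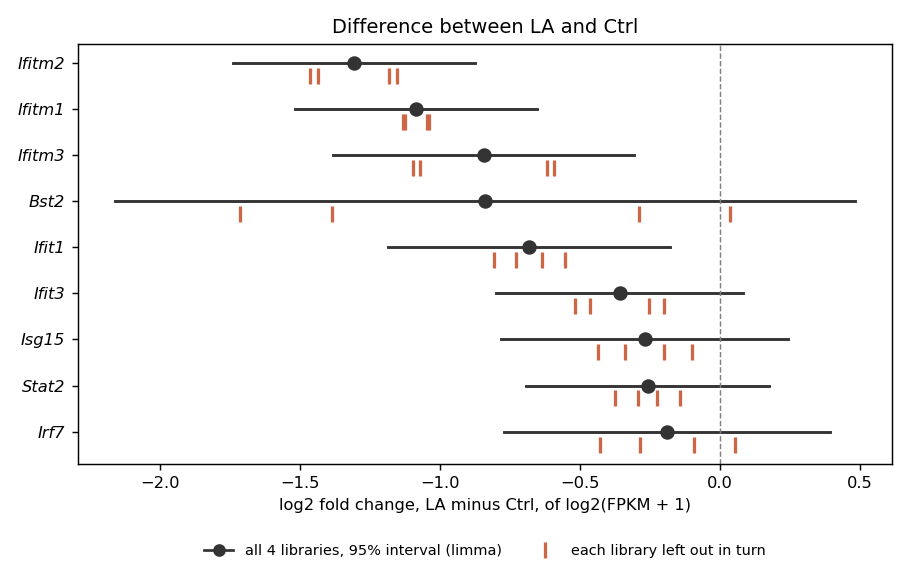
Log2 fold change, LA minus Ctrl, of log2(FPKM + 1) (horizontal axis) for each of the 9 genes, with the 95% interval from limma as a black line and the value with each library left out in turn as orange ticks. The intervals of Ifitm2, Ifitm1, Ifitm3 and Ifit1 lie below 0 before any adjustment, and the ticks of Bst2 spread from -1.71 to 0.034.

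In the order of mean FPKM over the 4 libraries the 9 genes ran from Ifitm3 (20.1 FPKM, above 78.6% of the table) over Ifitm2 (14.9), Ifit3 (9.97), Bst2 (7.03), Stat2 (5.68), Ifitm1 (4.66), Isg15 (2.13) and Ifit1 (1.63) to Irf7 (1.17 FPKM, above 31.3%). FPKM is a level per length, so these levels can be set beside each other within limits. Those of Ifitm2 and Ifit3 are the least certain, since 48.5% and 51.2% of their 50-base stretches occur in another gene. The order of neighbours was not the same in every library. Ifitm3 lay above Ifitm2 in each of the 4, but Ifitm2 lay above Ifit3 in the Ctrl libraries and below it in the LA libraries, and Bst2 was below Stat2 in Ctrl replicate 2 and LA replicate 1 and above it in the others.

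The wider pathway was then described by role. Of 129 listed genes 120 were in the table and 80 were tested, of which 0 passed with limma, 10 had an unadjusted p under 0.05, all lower with LA, and 26 had both LA libraries below both Ctrl libraries against 8 above. The shares over all tested genes were 4.06% lower at that unadjusted p, 21.0% below and 17.6% above. The list includes the 9 genes described. Its median log2 fold change was -0.12.

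The ligands were at or near the floor. Of the 12 interferon genes listed 7 were not analysed here and 5 were in the table, and Ifne, Ifnl2, Ifnl3 and Ifnz had 0.06 to 0.16 FPKM in Ctrl replicate 3 and were listed at 0 in the other libraries, as was Ifng in all 4. No interferon gene was thus tested. Among the receptor chains, 5 of 6 were tested and 0 passed with limma, with 0 at an unadjusted p under 0.05. Ifnar2 was 15.4 and 20.2 FPKM in Ctrl and 11.6 and 14.3 FPKM in LA, with a log2 fold change of -0.43 (adjusted p = 0.665 from limma), and its partner Ifnar1 was 11.5 and 9.81 against 10.96 and 8.28 FPKM. Ifngr2, a chain of the interferon-gamma receptor, lay higher with LA by 0.16 on the log2 scale. The groups of Ifnar2 and Ifngr2 did not overlap, and those of Ifnar1 did.

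Among the transducers beside Stat2, the receptor kinase Jak1 was 37.7 and 35.3 FPKM in Ctrl and 32.1 and 35.3 FPKM in LA, with a log2 fold change of -0.11. The kinases Jak2 and Tyk2 had log2 fold changes of 0.10 and 0.04. Irf9, which gives the complex its contact with the element, was 1.91 and 2.23 FPKM in Ctrl and 2.49 and 2.01 FPKM in LA. The groups of Jak2, Tyk2 and Irf9 overlapped, and those of Jak1 nearly met. None of these 4 genes passed with limma, and 0 had an unadjusted p under 0.05.

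Interferon regulatory factors, the family of Irf7, had a median log2 fold change of 0.06 over 7 tested genes, 0 past the threshold with limma and 0 at an unadjusted p under 0.05. Irf3, which starts the interferon response in cells that sense viral nucleic acid, was 8.03 and 9.43 FPKM in Ctrl and 10.8 and 10.6 FPKM in LA. Irf8, a factor of microglia and other myeloid cells, was 1.91 and 2.14 against 2.85 and 2.40 FPKM, while Irf1 was 4.08 and 4.71 against 3.93 and 3.24 FPKM. Irf3 and Irf8 thus lay higher with LA in both libraries, where Irf1 lay lower. Sensors of viral nucleic acid and their adaptors had a median of -0.07 over 9 tested genes, with 0 past the threshold and 0 at an unadjusted p under 0.05. Tbk1, the kinase that activates Irf3, had a log2 fold change of -0.36, the DNA sensor Cgas 0.31 and the adaptor Myd88 0.30.

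The list of 48 effectors that type I interferon induces includes Ifit1, Ifit3, Isg15 and Bst2, and 32 of its genes were tested. Of these 0 passed with limma, and the median log2 fold change was -0.12. At an unadjusted p under 0.05 from limma 3 were lower and 0 higher, beside 4.06% and 3.74% of all tested genes. In 10 both LA libraries lay below both Ctrl libraries and in 2 above, beside 21.0% and 17.6% of all tested genes. Ifit1, Ifit3 and Isg15, which are among the 9 genes described, are in those 10, and Ifit1 is in the 3. Lgals3bp, a secreted glycoprotein gene, was 11.6 and 37.9 FPKM in Ctrl and 9.32 and 10.4 FPKM in LA, the high value that of Ctrl replicate 3. Its log2 fold change was -1.03 (adjusted p = 0.652 from limma), and -1.84 without Ctrl replicate 2. Besides Ifit1 the genes of smallest p were Ifi27l2a, at 4.04 and 4.93 FPKM in Ctrl and 2.46 and 3.13 FPKM in LA, and Oasl2, a relative of the enzymes that make the alarm molecule 2-5A, at 3.32 and 6.37 against 2.84 and 2.16 FPKM. The remaining 16 genes of the list were below the filter and reached 1.08 FPKM at most, among them the antiviral GTPase genes Mx1 and Mx2 and the antiviral enzyme gene Rsad2. Mx1 was 0.14 to 0.33 FPKM and Rsad2 0.48 to 0.80 FPKM over the libraries. Mx1, Mx2 and Rsad2 had overlapping groups, while Oas1a, an enzyme that makes 2-5A, was 0.66 and 0.74 FPKM in Ctrl and 0.24 and 0.26 FPKM in LA with no test.

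Genes that interferon-gamma induces had a median log2 fold change of -0.51 over 11 tested genes. Of these 0 passed with limma, while 4 were lower and 0 higher at an unadjusted p under 0.05 from limma. The shares over all tested genes were 4.06% and 3.74%. Gbp2, a GTPase that attacks the membranes around pathogens, was 2.27 and 3.16 FPKM in Ctrl and 1.24 and 1.29 FPKM in LA. Gbp4, of the same family, was 0.65 and 4.77 against 0.25 and 0.21 FPKM, and Tap1, which carries peptides to MHC class I, was 1.50 and 3.09 against 1.21 and 0.71 FPKM. For Gbp4 and Tap1 the high value was that of Ctrl replicate 3, and Gbp4 alone of the 11 passed without Ctrl replicate 2 (log2 fold change -2.23, adjusted p = 3.06e-05 from limma). The median deviation of the list from the mean of the 4 libraries was 0.51 in Ctrl replicate 3, -0.13 in Ctrl replicate 2, and -0.17 and -0.23 in the LA libraries, so that Ctrl replicate 2 lay near LA. Brakes on the pathway had a median of -0.03 over 6 tested genes, 0 past the threshold with limma and 0 at an unadjusted p under 0.05. Socs3, an inhibitor of JAK kinases, was 1.00 and 2.46 FPKM in Ctrl and 0.80 and 0.71 FPKM in LA.

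**Figure D3:**
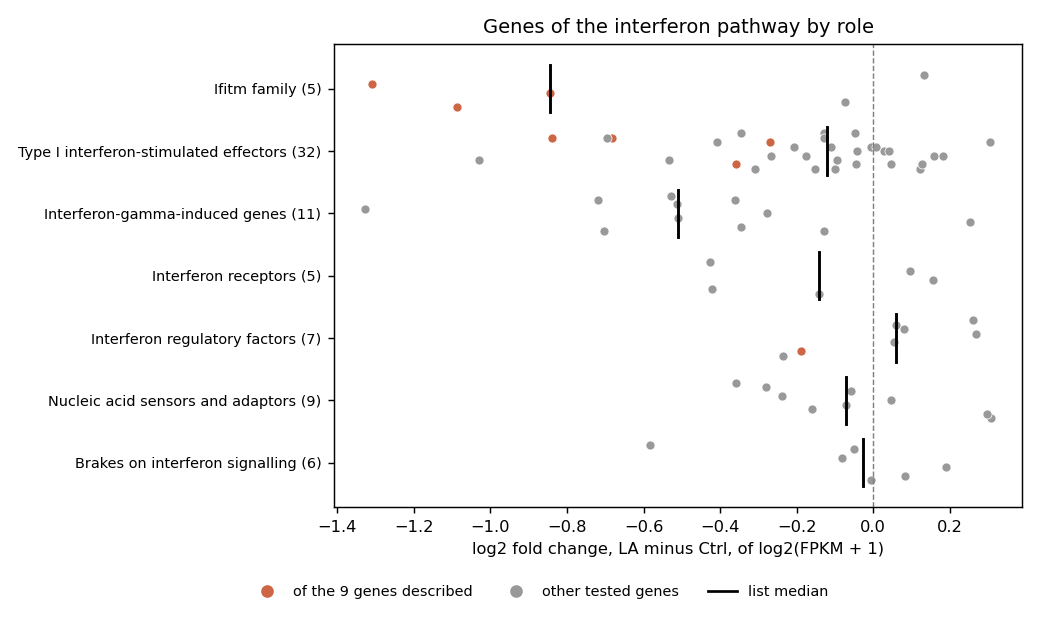
Log2 fold change, LA minus Ctrl, of log2(FPKM + 1) (horizontal axis) for each tested gene of 7 interferon pathway lists, with the number tested in brackets, those of the 9 genes in these lists in orange and list medians as black bars. Ifitm2 and Ifitm1 lie at -1.31 and -1.09, and the median of the interferon regulatory factors is 0.06.

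Several of these genes are carried by vessel, meningeal and border cells as well as by microglia, so markers of those cells were set beside them. The marker lists were chosen with earlier results of these data known. Over all tested genes, 21.0% had both LA libraries below both Ctrl libraries, 52.4% were negative, and 0.141% passed and were lower. At an unadjusted p under 0.05 from limma 4.06% were lower and 3.74% higher. Leptomeningeal fibroblast markers had both LA libraries below both Ctrl libraries in 12 of 12 tested genes, and 5 of 12 passed and were lower with limma. Their summed level was 241.9 and 284.5 FPKM in Ctrl and 93.3 and 103.0 FPKM in LA, and the genes of smallest p were Aldh1a2, an enzyme of retinoic acid synthesis, with a log2 fold change of -2.13 (adjusted p = 0.0196 from limma), and the transporter gene Slc6a13 with -2.10 (adjusted p = 0.0196). Endothelial markers had a negative log2 fold change in 11 of 11 tested genes, with a median of -0.60. Both LA libraries lay below both Ctrl libraries in 7 of the 11. With limma 0 passed the threshold and 5 were lower at an unadjusted p under 0.05. Their summed level was 75.0 FPKM in Ctrl replicate 2, 122.5 FPKM in Ctrl replicate 3, and 54.4 and 60.6 FPKM in LA. Pericyte and smooth muscle markers summed to 77.3 to 81.1 FPKM in Ctrl and 37.1 to 37.3 FPKM in LA. They were negative in 7 of 7, of which Vtn passed with limma, and both LA libraries lay below both Ctrl libraries in 5. No marker of these 3 lists was at 0 in all libraries. In bulk tissue fewer cells of a type and less RNA per cell cannot be told apart, and the part of these cells in the values of the 9 genes was not tested.

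Of the border macrophage list 3 of 7 genes were tested, with F13a1 at 1.36 and 2.60 FPKM in Ctrl and 0.43 and 0.57 FPKM in LA. The list summed to 8.56 and 11.4 FPKM in Ctrl and 3.78 and 4.01 FPKM in LA. Microglia markers went the other way, positive in 13 of 13 tested genes with a median log2 fold change of 0.40, 0 past the threshold with limma and 5 higher at an unadjusted p under 0.05, and a summed level of 329.0 to 339.7 FPKM in Ctrl and 453.0 to 455.0 FPKM in LA. Blood leukocyte markers were near the floor, with 8 of the 10 in the table below the filter, and summed to 8.15 and 13.4 FPKM in Ctrl and 4.43 and 12.6 FPKM in LA. Erythrocyte markers lay higher with LA in 5 of 5 tested genes, with a median of 0.59, 0 past the threshold with limma and 1 at an unadjusted p under 0.05, and summed to 1645 and 1610 FPKM in Ctrl and 3258 and 1863 FPKM in LA. The part of blood in the values of the 9 genes was not tested. Hippocampal neuron markers were all present, at 1954 to 2368 FPKM in sum, and had a median log2 fold change of 0.01. The list includes genes of neurons in general, so its sum does not check the region. Oligodendrocyte markers were positive in 10 of 10 with a median of 0.97, 0 past the threshold with limma and 10 higher at an unadjusted p under 0.05.

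The 9 genes did not share 1 pattern over the libraries. Ifitm1, Ifitm2, Ifitm3, Ifit1, Ifit3 and Stat2 were above their mean in both Ctrl libraries and below it in both LA libraries. The medians of the leptomeningeal, pericyte, endothelial and border macrophage markers had the same signs. Of all tested genes 21.0% had both LA libraries below both Ctrl libraries, and the likeness to these lists was not tested. Bst2 was high in Ctrl replicate 3 and slightly above its mean in LA replicate 2. Isg15 was 0.30 below its mean on the log2 scale in LA replicate 2 and 0.03 above it in LA replicate 1.

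**Figure D4:**
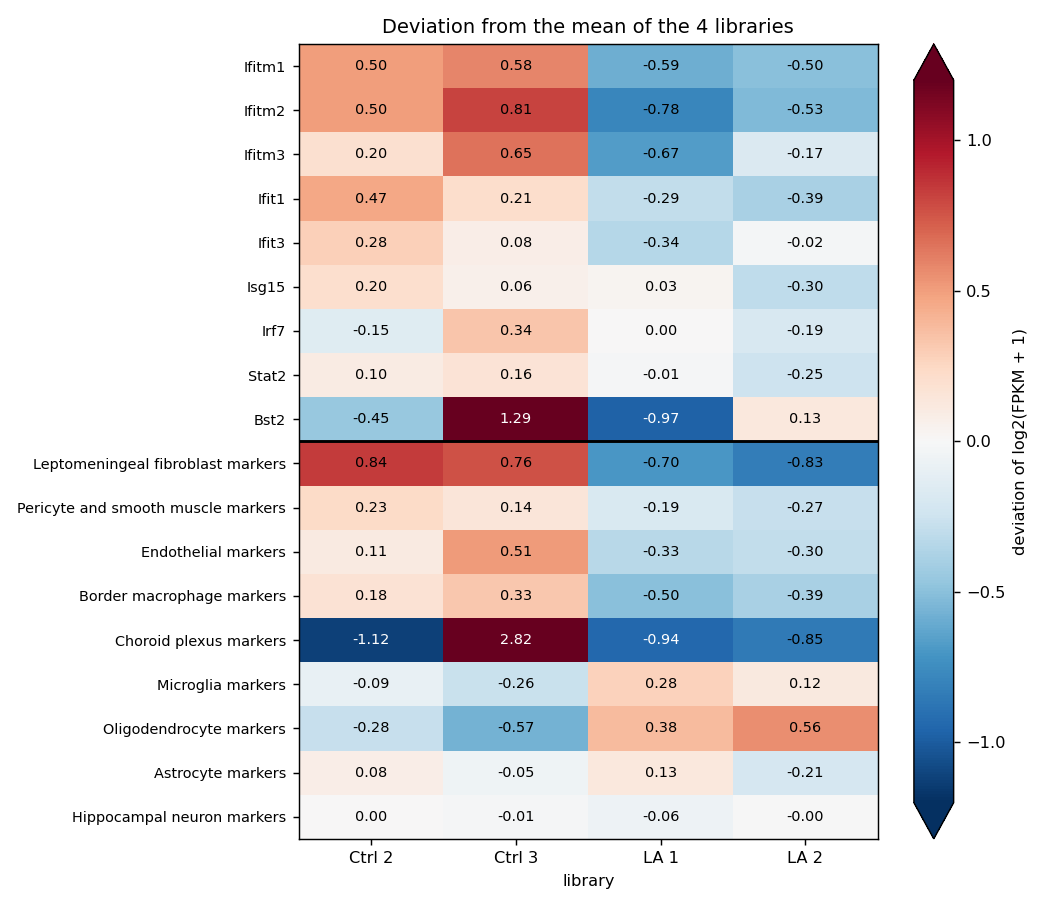
Deviation of log2(FPKM + 1) from the mean of the 4 libraries (colour and printed values, columns are libraries) for the 9 genes above the line, and the median deviation of tested genes in 9 cell type marker lists below it. Colours are capped, and the choroid plexus markers reach 2.82 in Ctrl replicate 3, where Bst2 is at 1.29.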

How the data were processed

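Hippocampal mRNA of 4 libraries was measured, and the authors deposited its level as FPKM. TopHat2, Cufflinks and the build GRCm38 are named in the submitters' processing notes, while versions and gene annotation were not given in the sources used here. The paper describes human cells only, so its methods were not used. Column names gave the library. A spreadsheet date stood for 11 gene symbols, and these were looked up by gene number in RefSeq (GRCm38.p6).

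Genes whose mean over the libraries reached 1 FPKM were tested (13518). Values were put on the scale log2(FPKM + 1), and LA was compared with Ctrl by limma 3.58.1 in R 4.3.3 (lmFit, eBayes with a trend), with Benjamini-Hochberg adjustment over all tested genes and a threshold of 0.05. For a single gene, exact two-sided permutation of 2 against 2 libraries gives no p under 0.333. The procedure was tested on simulated data with genes drawn independently and no library set apart. Such data do not check it for a library like Ctrl replicate 3.

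Depth was estimated from the step in FPKM between low values of genes that have 1 transcript in GENCODE M21. Of low values, 68.7% to 72.3% lay within 0.2 of a whole number of fragments, so fragment numbers are approximate. They assume the median length of a gene's coding transcripts, and their errors cover counting only.

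The 9 genes, the pathway lists and the marker lists were chosen with earlier results of these data known. The text names the 9 genes, up to 3 genes of smallest p per pathway list, up to 2 per marker list, and the 5 genes nearest to Ifitm3. Other Ifitm genes, the ligands, Ifnar1, Irf9, Tyk2, Ifit2, Ifit3b, Lgals3bp, Mx1, Mx2, Rsad2, Oas1a and Ttr were chosen for naming once their values were known. The comparison of Ifitm proteins was not made, and 1 gene of the pathway lists is not reported here. There were 12 alternatives. They were limma without trend or with robust estimation, a filter at 5 FPKM or none, a pseudocount of 0.1 or 0.5, quantile normalization, median-ratio scaling, and leaving out each library.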

Additional observations from a re-analysis of the deposited data

How the results depend on the processing

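The count of called genes was 19 as reported, 0 of 19080 without a filter and 40 with robust estimation, and 2 to 227 with each library left out in turn, at 227 without Ctrl replicate 2 (191 lower with LA and 36 higher), 78 without Ctrl replicate 3 (62 and 16), 177 without LA replicate 1 (58 and 119) and 2 without LA replicate 2 (2 and 0). Of the 9 interferon genes 0 were called as reported, 1 with a mean of at least 5 FPKM and 1 with robust estimation (Ifitm2 each time), and 0 to 2 with each library left out, where Ifitm2 and Bst2 passed without Ctrl replicate 2. Of the pathway lists, 2 effectors (Bst2 and Lgals3bp) and 1 interferon-gamma-induced gene (Gbp4) passed without Ctrl replicate 2 and 0 as reported. The cause was not tested. The median log2 fold change of the 9 stayed between -0.89 and -0.61 over the other settings and between -0.64 and -0.44 with each library left out, and neither scaling moved the median of all genes by over 0.1. Signs turned without Ctrl replicate 3 for Bst2 (0.034, range -1.71 to 0.034) and Irf7 (0.051, range -0.43 to 0.051). Of 104 values of the 9 genes under the 12 alternatives, 98 had the same sign and call, 4 newly passed and 2 changed sign. With a mean of at least 5 FPKM, 5 of the 9 genes were tested, so the other 4 have no value there. Leaving out a library leaves 1 in its group, whose spread is taken from the other group. No paired analysis was possible because the groups share only replicate number 2. Depth limits Irf7 and Isg15 most, at under 51 fragments in every library. Ifitm1 had about 27 and 30 and Ifit1 about 42 and 38 in LA replicates 1 and 2, and Bst2 had about 28 in LA replicate 1.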

Other observations

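Over the 4 libraries, the genes whose log2(FPKM + 1) deviations lay nearest to those of Ifitm3 were Klf4, a transcription factor, Ptgis, the synthase of prostacyclin, Bcam, a laminin receptor, Cyb561 and the sulfotransferase gene Sult1a1, at root mean square differences of 0.033, 0.034, 0.085, 0.098 and 0.106. Klf4 was 1.58 and 2.37 FPKM in Ctrl and 0.42 and 1.02 FPKM in LA, and Bcam 4.32 and 7.37 against 2.01 and 3.09 FPKM. Sult1a1 was 21.1 and 34.4 FPKM in Ctrl and 13.3 and 16.6 FPKM in LA. None of these 5 passed with limma. Among the other interferon genes Ifitm1 and Ifitm2 were the nearest, at ranks 85 and 138 of all tested genes, while Isg15 stood at rank 4206 and Bst2 at rank 6214. The order rests on 4 values per gene.

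The genes of the table were also split by the core of the response element near the start. The 364 tested genes with the core GAAA, 2 bases, GAAA in a window had a median log2 fold change of -0.02, with 53.8% negative, and the 10140 tested genes with a window and no match had -0.01, with 52.2% negative. Both LA libraries lay below both Ctrl libraries in 23.9% and 20.9% of them, and 4 of the 364 and 10 of the 10140 passed and were lower. For the 23 tested genes with more than 1 match the median was -0.16, and 18 (78.3%) were negative. Both LA libraries lay below both Ctrl libraries in 9 (39.1%), and 0 passed with limma. Of the 23, 5 are described in the report and were chosen with results of these data known, Ifitm3, Ifit1, Ifit3, Isg15 and Bst2. All 5 were negative, and all but Bst2 had both LA libraries below both Ctrl libraries, so they raise these shares. These are descriptions with no test.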
